A study of Mus musculus with 27 samples.

Results

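Trichostatin A (TSA), an inhibitor of histone deacetylases, was compared with A485, an inhibitor of the acetyltransferases p300 and CBP, in mouse embryos of the morula stage. The comparison used the 3 TSA and the 3 A485 libraries, taken by their sample titles, which are 6 of the 27 libraries of the series. The 3 Vehicle libraries served only as the reference that tells an opposite change from a shared one. All 9 libraries came from embryos with the genotype Wildtype, grown in KSOM culture medium, with no injection. The inhibitor or the vehicle was present from E2.5 to E2.75 (days of embryonic development), and each library pooled 15 to 20 whole embryos. The dose in the table headers was 50 nM for TSA and 10 uM for A485, and the vehicle's solvent is not named in the sources used here. Each inhibitor was given at 1 dose and 1 time, and the 2 doses are not matched for effect on acetylation, which was not analysed here. The series studies how a microRNA and chromatin regulators act in the early embryo. The labels give the cells as morula blastomeres and number the replicates, without saying which cultures they came from. P-values below therefore measure the spread between pools, part of which may be technical. The filter, the scaling and the estimate of that spread also rest on 3 uninjected libraries of the same stage. These were treated with SAHA, another deacetylase inhibitor, at 500 nM in the headers.

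Lysine acetylation of histones marks active enhancers and promoters. The acetyltransferases p300 and CBP, encoded by Ep300 and Crebbp, write much of it at enhancers, and the deacetylases Hdac1, Hdac2 and Hdac3 remove it as the catalytic parts of the Sin3, NuRD, CoREST and NCoR corepressor complexes. At the morula stage the outer cells start the trophectoderm programme under Cdx2 and Gata3, the inner cells keep Nanog and Pou5f1, and the earlier programme of the 2-cell embryo, with the retrovirus MERVL and the Zscan4 genes, has been shut down.

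The 6 libraries held 7557591 to 11720488 counts, and the 3 TSA libraries were the shallowest, at 7557591, 8061766 and 8295670. After thinning every library to 7557591 counts, genes with at least 10 counts numbered 16174 ± 286 (SD, n = 3) with TSA, 13128 ± 270 with A485 and 13630 ± 91.0 with Vehicle. In these 6 libraries the TSA and A485 counts of detected genes did not overlap (two-sided exact permutation p = 0.1, the smallest that 3 against 3 can give; adjusted p = 0.124 over 21 such tests). Of the counts, 3.11 ± 0.548% were from mitochondrially encoded genes with TSA, 2.51 ± 0.136% with A485 and 1.07 ± 0.109% with Vehicle. The TSA and A485 libraries overlapped in this share (same permutation test, p = 0.3). Among 6 markers of the morula, Cdh1, the E-cadherin of compaction, stood at 74.6 to 97.9 CPM (counts scaled to the library total) with A485, 117 to 148 with TSA and 207 to 270 with Vehicle, while Pou5f1 stood at 3.57 to 7.46, 9.04 to 16.6 and 72.7 to 107. All 6 markers were detected in each of the 9 libraries and were lower in every treated library than in every Vehicle library. The summed level of 10 blood and immune markers was 74.5 to 153 CPM with TSA, 37.5 to 66.0 with A485 and 21.7 to 31.5 with Vehicle, with 3 to 4, 3 to 5 and 4 to 7 of the 10 at 0. Its members disagreed. Cd74 was highest with TSA (30.5 to 90.5 CPM), while Cd68 was highest with A485 (26.5 to 56.9 CPM, against 18.9 to 22.4 with TSA). The leukocyte marker Itgam was at 0 in all 9 libraries, and the beta-globins Hbb-bs and Hbb-bt were at 0 in every TSA and A485 library. Sums of oviduct and stroma markers were 7.01 to 12.3 CPM with TSA, 0.564 to 5.46 with A485 and 0.547 to 2.45 with Vehicle. Sums of cumulus markers were at most 6.57 CPM in these 9 libraries. Sums of sperm markers were 1.93 to 4.22, 1.37 to 2.25 and 5.55 to 11.1 CPM in the same group order. The part of depth, of mitochondrial RNA and of other cell types in the differences below was not tested.

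In bulk pools of embryos, fewer cells of a type and less RNA per cell cannot be told apart. Vehicle 3 stood apart from Vehicle 1 and 2 in the 2-cell genes, with 244.6 CPM of MERVL-int against 12.5 and 14.3, before the scaling used below. The classes and the 2-cell counts are given with and without it. Other list counts of opposite genes are for all libraries, and where such a call of a gene named below was lost in at least 1 other setting, this is stated. For single genes, a call counts as kept in a setting if its adjusted p stayed under 0.05. The settings with a threshold of 0.01 or with at least 2-fold changes were not applied to these statements, so a kept call can be under 2-fold.

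TSA and A485 left the embryos with RNA pools that differed at 11626 of the 18299 genes tested, or 63.5% (edgeR's quasi-likelihood test, p adjusted by Benjamini-Hochberg over all genes tested, threshold 0.05). Of these genes, 6610 (36.1% of those tested) were higher with TSA and 5016 (27.4%) were higher with A485. The sizes were uneven. At least 8-fold differences numbered 3252 with TSA higher and 491 with A485 higher, against 5856 and 3699 for at least 2-fold. The 3 TSA and 3 A485 libraries did not overlap at 12092 genes, 66.1% of those tested. The median difference over all genes was 0.27 on the log2 scale, and it was 0.39 with DESeq2 size factors and 0.14 with library size alone, so list medians below are best read against that shift. List counts in the direct test are best read against the shares of 36.1% and 27.4%.

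Against Vehicle, 5781 genes (31.6%) rose and 4860 (26.6%) fell with TSA, while 3908 (21.4%) rose and 4420 (24.2%) fell with A485. The balance for A485 turned without Vehicle 3 (3732 rose and 3495 fell) and without A485 1 (4070 and 3931). Both contrasts share the Vehicle libraries, so the counts of genes called in both are descriptions. Opposite changes were found at 1704 of the 5188 genes called in both (32.8%), and shared changes at 3484 (67.2%). The opposite genes comprised 883 that rose with TSA and fell with A485 (4.83% of genes tested) and 821 that fell with TSA and rose with A485 (4.49%). The shared genes comprised 1522 that rose with both (8.32%) and 1962 that fell with both (10.7%). List counts of these classes below are best read against these 4 shares. Without Vehicle 3 the first opposite class held 514 genes, 493 of them in both counts, and the second held 686. The order of the 2 opposite counts also turned with library size alone (819 and 981) and with limma-voom (611 and 1001). It turned as well without A485 1 (724 and 1032) and in a fit of all 27 libraries (745 and 920). By bare order of the library values, 876 genes (4.79%) had all 3 A485 libraries below all 3 Vehicle libraries and these below all 3 TSA libraries. The reverse order held for 1467 genes (8.02%). With TMM scaling of the libraries these counts were 992 and 1220.

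The 2 opposite classes differed in size of effect. For the genes that rose with TSA and fell with A485, the median log2 change was 2.99 with TSA and -3.06 with A485, and the median direct difference was 6.44. With genes at 0 in a whole group set to a floor of 3 counts over the group, the last 2 medians were -2.42 and 5.76. In that class 232 of the 883 genes had no count in any A485 library. For the genes that fell with TSA and rose with A485, the medians were -1.10, 0.99 and -2.15. Shared changes were on the whole of like size with both drugs, with medians of 2.05 with TSA and 1.82 with A485 for genes that rose, and -1.63 and -1.65 for genes that fell. Even so, 1660 of the 3484 shared genes also passed the direct test. Among genes that rose with both, 431 were higher with TSA and 266 with A485. Among genes that fell with both, 545 were higher with TSA and 418 with A485.

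**Figure D1:**
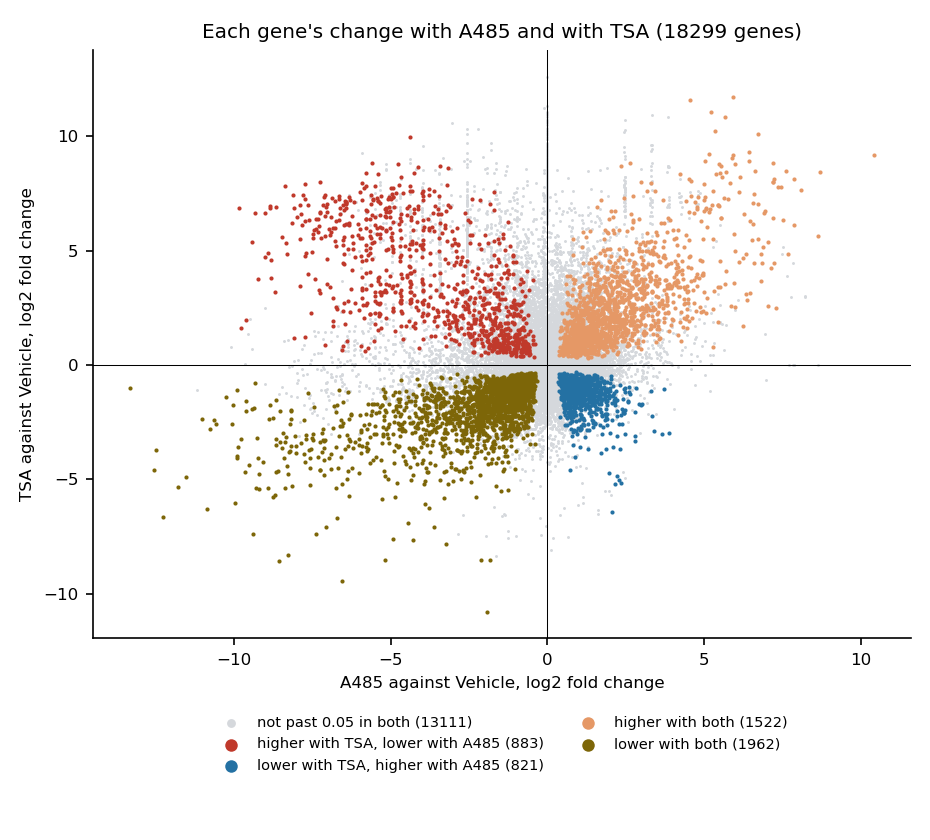
Log2 fold change against Vehicle of each of 18299 tested genes with A485 (horizontal axis) and with TSA (vertical axis); colours mark the 4 classes of genes called in both contrasts. Opposite genes fill the upper left (883) and lower right (821) and shared genes the upper right (1522) and lower left (1962); the upper left reaches farther out than the lower right.

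One gene of each class is shown by the bases before 1 RefSeq start, as an example. The sequences are the 150 bases before a RefSeq start of the gene on GRCm38.p6, 5′ to 3′ on the gene's own strand, and capitals mark any of 5 sets of letters on either strand. These are TATAAA of the TATA box, CCAAT of NF-Y sites, GGGCGG of GC boxes, the CREB site TGACGTCA and the AP-1 site TGANTCA. Usp17la, a deubiquitinase gene of the 2-cell embryo on the plus strand at chr7:104856866-104857015, was higher with TSA and lower with A485. Cmtm3, a membrane protein gene on the plus strand at chr8:104340444-104340593, was the reverse. Ankrd34b, on the plus strand at chr13:92425819-92425968, rose with both. Rab17, a small GTPase gene of epithelial transport on the minus strand at chr1:90967668-90967817, fell with both. In the GENCODE gene models, Cmtm3 begins at 104339410 and Rab17, on the minus strand, at 90969661. The windows of these 2 genes thus lie inside the gene model and precede an internal start. The windows of Usp17la and Ankrd34b run past the starts of their gene models, at 104857009 and 92425896. Which start was used in these embryos was not tested.
Usp17la: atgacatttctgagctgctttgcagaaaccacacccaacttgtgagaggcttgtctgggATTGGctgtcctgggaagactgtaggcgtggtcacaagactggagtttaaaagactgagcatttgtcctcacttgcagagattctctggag
Cmtm3: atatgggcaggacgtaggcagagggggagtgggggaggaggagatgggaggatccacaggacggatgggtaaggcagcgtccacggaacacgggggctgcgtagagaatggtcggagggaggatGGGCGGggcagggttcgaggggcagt
Ankrd34b: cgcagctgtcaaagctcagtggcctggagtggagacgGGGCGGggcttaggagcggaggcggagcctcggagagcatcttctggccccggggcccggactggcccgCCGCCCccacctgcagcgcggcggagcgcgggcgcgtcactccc
Rab17: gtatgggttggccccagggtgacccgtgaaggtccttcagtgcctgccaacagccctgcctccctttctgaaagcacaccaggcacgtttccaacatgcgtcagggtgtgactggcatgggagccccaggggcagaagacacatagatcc
The Usp17la window held ATTGG, which is CCAAT on the other strand, and 1 CG pair. The Cmtm3 window held GGGCGG and 9 CG pairs. The Ankrd34b window held GGGCGG once on each strand and 17 CG pairs. None of the 5 sets of letters was found in the Rab17 window, which had 3 CG pairs. Over all 32851 promoters of the same length in the RefSeq table, CCAAT was found in 24.5%, GGGCGG in 28.6%, TATAAA in 7.57%, TGANTCA in 4.24% and TGACGTCA in 1.36%, and the median number of CG pairs was 4. Between 57.1% and 76.9% of the members of each class had an entry in that table, too few for a comparison of the classes.

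The values in the rest of the text are CPM scaled by TMM, a scaling that centres the bulk of genes, given for libraries 1, 2 and 3 of a group in that order. A log2 difference is followed by its standard error and by the adjusted p of the same edgeR test. CPM is not corrected for gene length, so levels of different genes are not compared.

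Of the genes that encode the drugs' own targets, those of the A485 targets were lower with TSA than with A485. Ep300 (chromosome 15, 81585351 to 81652077) stood at 71.6, 52.3 and 37.6 CPM with A485, 22.7, 21.5 and 24.2 with Vehicle and 15.0, 20.1 and 18.1 with TSA. All 3 A485 libraries lay above all others (TSA against A485 -1.60 ± 0.23, adjusted p = 3.6e-05), while the TSA change against Vehicle was -0.36 ± 0.23 (adjusted p = 0.19). Crebbp (chromosome 16, 4081328 to 4213997) stood at 197, 154 and 120 CPM with A485, 135, 130 and 120 with Vehicle and 39.6, 29.7 and 34.1 with TSA. The TSA libraries were the low ones for Crebbp, and A485 and Vehicle overlapped (TSA against A485 -2.18 ± 0.19, adjusted p = 3e-07).

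Among the TSA targets, Hdac1 (chromosome 4, 129516104 to 129542713) stood at 310, 294 and 352 CPM with A485, 237, 296 and 270 with Vehicle and 476, 511 and 535 with TSA. Hdac2 (chromosome 10, 36974544 to 37001889) stood at 61.0, 41.6 and 46.4, then 64.0, 58.3 and 56.2, then 154, 173 and 120 CPM in the same group order. The TSA libraries were the highest for both genes, by 0.67 ± 0.14 (adjusted p = 0.00065) and 1.59 ± 0.18 (adjusted p = 4e-06) over A485. Hdac3 went the other way, at 85.9, 102 and 108 CPM with A485, 52.2, 56.5 and 53.1 with Vehicle and 38.8, 35.6 and 46.2 with TSA (-1.30 ± 0.16, adjusted p = 1.1e-05). Its fall with TSA against Vehicle was lost in at least 1 other setting (adjusted p up to 0.160). Hdac8 rose with both drugs and was lower with TSA than with A485 (-1.03 ± 0.30, adjusted p = 0.0081). Hdac6, a deacetylase of tubulin, rose with both drugs, at 39.3, 38.2 and 49.2 CPM with A485 and 39.9, 40.0 and 35.7 with TSA, and the drugs were not told apart (-0.13 ± 0.22, adjusted p = 0.62). Hdac9, a class IIa deacetylase named here after its values were seen, stood at 3.47, 3.80 and 1.20 CPM with A485 and 230, 182 and 190 with TSA, while Vehicle 3 with 12.1 lay apart from Vehicle 1 and 2 with 0.369 and 0.543. Over 16 deacetylase genes tested, sirtuins included, 5 were higher with TSA and 5 with A485, with a median of -0.04 that turned to 0.07 with DESeq2 size factors.

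The wider group of acetyltransferase genes and their partners was mostly lower with TSA than with A485. Of 44 tested, 25 were higher with A485 and 5 with TSA, with a median of -0.62 beside 0.27 for all genes. Against Vehicle, 3 rose and 24 fell with TSA (median -0.66), while 11 rose and 11 fell with A485 (median -0.09). Kat2b, the acetyltransferase PCAF, stood at 48.4, 34.6 and 40.1 CPM with A485, 5.54, 4.89 and 4.43 with Vehicle and 3.83, 2.62 and 3.23 with TSA. The A485 libraries alone were high (-3.67 ± 0.34, adjusted p = 6.5e-07), and the TSA change against Vehicle was not past the threshold (adjusted p = 0.13). Jade1 (chromosome 3, 41555731 to 41616864), a scaffold of the HBO1 acetyltransferase complex, moved both ways. It stood at 158, 125 and 114 CPM with A485, 37.8, 35.3 and 34.3 with Vehicle and 7.93, 11.3 and 9.30 with TSA, and the 3 groups did not overlap (-3.80 ± 0.23, adjusted p = 1.4e-08). Jade1 and Ncoa1 were the 2 of the 44 that changed in opposite directions, both lower with TSA and higher with A485, a class of 4.49% of all genes tested. The TSA call of Ncoa1 was lost in at least 1 other setting (adjusted p up to 0.149). Of the 44, 9 fell with both drugs, beside 10.7% of all genes tested. The 5 genes that were higher with TSA were Ncoa2, Supt3, Brd1, Naa50 and Epc1.

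**Figure D2:**
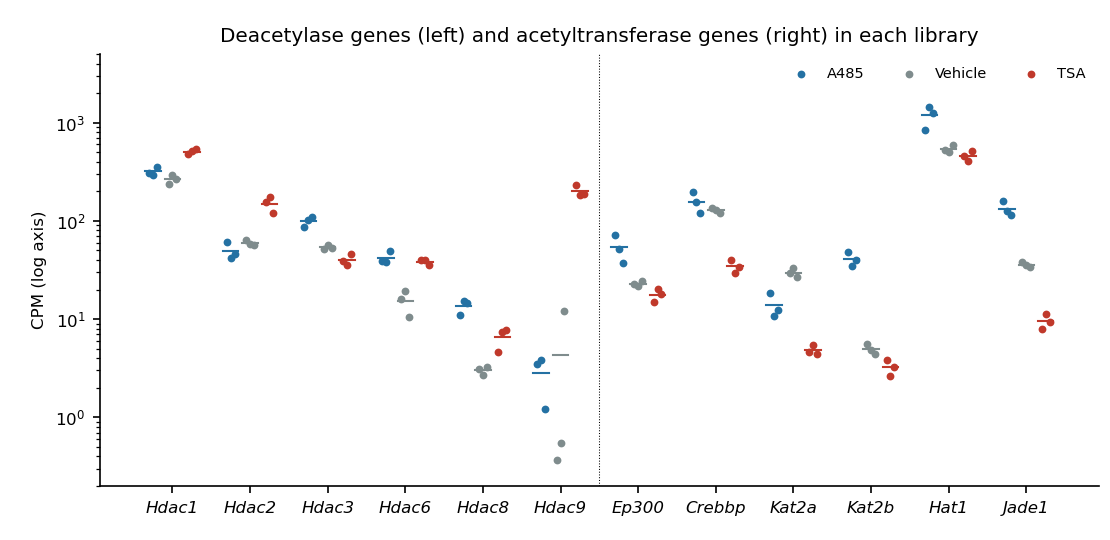
CPM (log axis) of 6 deacetylase genes (left) and 6 acetyltransferase genes (right), 1 point per library of A485, Vehicle and TSA. Hdac1, Hdac2 and Hdac9 are highest with TSA, while Ep300, Kat2b and Jade1 are highest with A485.

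Subunits of the deacetylase corepressor complexes split. Of 38 tested, 10 were higher with TSA and 17 with A485 (median -0.29). Arid4a, a Sin3 subunit, stood at 11.4, 10.5 and 15.6 CPM with A485, 38.4, 35.5 and 47.5 with Vehicle and 427, 335 and 325 with TSA, with no overlap between the 3 groups (4.85 ± 0.28, adjusted p = 1e-08). Its paralog Arid4b was also higher with TSA than with A485 (1.60 ± 0.16, adjusted p = 1.6e-06). Tbl1x, a subunit of the NCoR complex, stood at 85.9, 78.7 and 86.5 CPM with A485, 73.4, 47.3 and 40.0 with Vehicle and 11.2, 15.7 and 11.1 with TSA (-2.72 ± 0.25, adjusted p = 5e-07). Its rise with A485 against Vehicle was lost in at least 1 other setting (adjusted p up to 0.107). Of 36 readers of acetylated lysine and elongation factors, 13 were higher with TSA and 12 with A485, with a median of -0.01 that turned to 0.11 with DESeq2 size factors. Trim24, Supt4a, Aff1 and Ell2 of that list rose with TSA and fell with A485, and the TSA calls for Trim24 (adjusted p up to 0.111) and Aff1 (up to 0.121) and the A485 call for Ell2 (up to 0.139) were lost in at least 1 other setting.

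The genes of the 2-cell embryo showed the largest opposite difference of the lists. Of 38 tested, 36 were higher with TSA and 0 with A485, with a median log2 difference of 11.57, or 11.14 with genes at 0 set to the floor, and 26 rose with TSA and fell with A485. MERVL-int, the internal part of the retrovirus, stood at 7.73, 15.6 and 5.59 CPM with A485, 12.3, 14.2 and 246 with Vehicle and 10064, 8853 and 9853 with TSA. Every TSA library was far above all others, and the A485 libraries overlapped Vehicle 1 and 2 (TSA against A485 9.96 ± 1.18, adjusted p = 5.8e-06). Zscan4c, of the telomere-linked Zscan4 cluster, stood at 0.315, 0 and 0.344 CPM with A485, 0, 0.181 and 94.6 with Vehicle and 3217, 3666 and 4540 with TSA. Usp17la had no count in the 3 A485 libraries, stood at 0.185, 0.181 and 17.2 CPM with Vehicle and 573, 817 and 640 with TSA, and was at least 7980-fold higher with TSA than the floor of 3 counts over the A485 group. For each of these 3, Vehicle 3 alone lay above the A485 libraries by a wide margin.

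The opposite call of most 2-cell genes rested on Vehicle 3. Without that library, 6 of the 38 rose with TSA and fell with A485, against 28 without Vehicle 1 and 28 without Vehicle 2. The A485 change against Vehicle was lost in at least 1 other setting for MERVL-int (adjusted p up to 0.453), Zscan4c (0.580), Zscan4f (0.712), Zscan4b (0.491), Usp17la (0.293), Eif4a3l2 (0.0873), and Zscan4e, Spopfm1 and Spopfm2 (each up to 1). The direct difference between TSA and A485 passed in every setting tried for all of these genes. Pramef17, of the PRAME family, kept the opposite call in every setting. It was at 0 in the A485 libraries, at 1.11, 0.362 and 1.73 CPM with Vehicle and at 107, 170 and 155 with TSA, and was at least 1696-fold higher than the floor. Ubtfl1, a relative of the factor UBTF, fell from 11.7, 14.1 and 15.2 CPM with Vehicle to 0.158, 0 and 0 with A485 and rose to 223, 234 and 198 with TSA, with like Vehicle libraries. Duxf3, an activator of this programme, had no count in the Vehicle and A485 libraries and stood at 16.9, 36.8 and 21.1 CPM with TSA. The Zscan4, Usp17l, Spopfm and Dux genes are families of near-identical copies, so values of single members are uncertain.

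Beyond the 2-cell list, the named genes of this class with no count in any A485 library included Klhl6, Cd200r1, Cpb2 and Klf17, besides Spopfm1, Spopfm2 and Eif4a3l2 above. Klhl6 stood at 1.29, 0.181 and 1.92 CPM with Vehicle and 108, 137 and 124 with TSA, at least 1451-fold above the A485 floor, and its A485 call was lost in at least 1 other setting (adjusted p up to 0.0746). Cd200r1, a receptor gene of immune cells, stood at 1.48, 0.543 and 2.5 with Vehicle and 154, 148 and 104 with TSA, at least 1594-fold above the floor, and kept its calls. Klhl6 and Cd200r1 are known from blood cells. The sum of blood and immune markers was also higher in the TSA libraries, but the markers disagreed. Of the 5 tested, 3 were higher with TSA and 2 with A485. The latter were Cd68 (mean 37.7 CPM before scaling with A485 and 20.6 with TSA) and Csf1r (6.77 and 1.51). Ptprc, the pan-leukocyte gene, was at 0 in 2 of 3 TSA libraries and at 0.372 CPM before scaling in the other. Cpb2, a carboxypeptidase gene, was at least 1317-fold above the floor with TSA, and its A485 call was lost in at least 1 other setting (adjusted p up to 0.0654).

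Among pluripotency genes, 3 of 30 rose with TSA and fell with A485. Dppa3 (chromosome 6, 122626410 to 122630272), a maternal protein that protects the genome's methylation, stood at 75.5, 175 and 131 CPM with A485, 5826, 6837 and 7293 with Vehicle and 8296, 10595 and 14288 with TSA. The A485 libraries were the ones that stood apart, 87.0-fold below TSA (6.44 ± 0.33, adjusted p = 4e-09), and the rise with TSA was lost in at least 1 other setting (adjusted p up to 0.138). Fbxo15, an F-box gene of stem cells, stood at 64.5, 111 and 66.0 CPM with A485, 493, 780 and 731 with Vehicle and 1963, 2850 and 2610 with TSA. Klf17, a Krüppel-like factor, was at 0 with A485, at 5.17, 9.23 and 8.08 with Vehicle and at 85.6, 111 and 105 with TSA. For Fbxo15 and Klf17 the 3 groups did not overlap and both calls held in every setting.

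Aqp9 (chromosome 9, 71110659 to 71168682), a channel for water and glycerol, moved in both directions with little spread between libraries. It stood at 0.473, 0.724 and 0.688 CPM with A485, 71.7, 85.6 and 90.0 with Vehicle and 924, 1030 and 902 with TSA, a difference of 10.55 ± 0.24 (adjusted p = 2.4e-12). In the primitive endoderm list, the prolyl hydroxylase gene P4ha2 and the nuclear receptor gene Hnf4a showed the same order of groups. P4ha2 stood at 2.05, 7.42 and 2.23 CPM with A485, 36.5, 42.5 and 53.1 with Vehicle and 187, 283 and 239 with TSA. Hnf4a stood at 0.552, 0.543 and 0 CPM, then 2.77, 3.08 and 3.08, then 36.5, 30.9 and 26.6 in the same group order.

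Germline genes, which deacetylases and DNA methylation keep silent in somatic cells, were mostly higher with TSA. Of 36 tested, 27 were higher with TSA and 4 with A485 (median 2.25), and 9 rose with TSA and fell with A485, of which 6 kept both calls in every setting. Mael, a piRNA pathway gene, stood at 0.788, 0.181 and 2.06 CPM with A485, 5.54, 19.7 and 24.6 with Vehicle and 122, 86.6 and 130 with TSA (6.78 ± 0.62, adjusted p = 5.3e-07). Sycp1, of the synaptonemal complex, stood at 26.0, 26.4 and 31.5 CPM, then 30.6, 55.9 and 57.0, then 358, 313 and 304. Sycp1 was raised 2.76 ± 0.22 by TSA over Vehicle, and its smaller fall with A485 was lost in at least 1 other setting (adjusted p up to 0.0647). Zcwpw1, a reader of histone methylation in meiosis, kept both calls, at 2.05, 2.53 and 1.72 CPM with A485, 6.55, 6.70 and 4.04 with Vehicle and 29.5, 52.5 and 46.0 with TSA. Dazl, an RNA-binding protein of germ cells, was an exception and was higher with A485 (-2.28).

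Histone genes were mostly higher with TSA. Of 31 tested, 18 were higher with TSA and 4 with A485 (median 1.50), and 10 rose with both drugs, beside 8.32% of all genes tested. The 2 opposite classes held 2 and 1 of the 31, beside 4.83% and 4.49% of all genes tested. H1f1 and H2aj rose with TSA and fell with A485, and the centromeric variant gene Cenpa did the reverse, with an A485 call that was lost in at least 1 other setting (adjusted p up to 0.171). The linker histone gene H1f1 stood at 0.473, 0.543 and 1.55 CPM with A485, 2.03, 3.53 and 1.92 with Vehicle and 52.8, 55.2 and 64.8 with TSA. H2aj stood at 48.3, 33.5 and 50.9 CPM, then 83.7, 91.4 and 82.2, then 187, 181 and 218, and kept both calls, while the A485 call of H1f1 was lost in at least 1 other setting (adjusted p up to 0.0986). Replication-dependent histone transcripts lack long poly(A) tails and come in near-identical copies, so their values are uncertain.

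Cholesterol synthesis genes differed in 1 direction between the drugs. Of 23 tested, 13 were higher with TSA and 0 with A485 (median 0.81). Hsd17b7 stood at 5.05, 3.26 and 4.99 CPM with A485, 12.5, 17.7 and 13.5 with Vehicle and 64.0, 74.1 and 72.3 with TSA. The sterol reductase gene Dhcr7 and Insig1, which holds back the sterol-sensing SREBP pathway, were higher with TSA by 3.19 ± 0.27 (adjusted p = 2.7e-07) and 3.13 ± 0.27 (adjusted p = 3.3e-07). These 3 genes rose with TSA and fell with A485, and the A485 call of Dhcr7 was lost in at least 1 other setting (adjusted p up to 0.0559). Against Vehicle, 5 of the 23 rose with both drugs.

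The opposite class that was high with A485 was led by Fabp3 (chromosome 4, 130308595 to 130315463), a cytosolic carrier of fatty acids. It stood at 4762, 6826 and 4771 CPM with A485, 1297, 947 and 962 with Vehicle and 16.9, 50.2 and 21.7 with TSA. The 3 groups did not overlap, and the direct difference was 184-fold (-7.52 ± 0.65, adjusted p = 3.1e-07). Selenon, a selenoprotein of the endoplasmic reticulum, stood at 25.1, 12.7 and 11.3 CPM with A485, 5.90, 2.72 and 2.31 with Vehicle and 0, 0 and 0.258 with TSA. Cmtm3, for which a window is given above, stood at 34.5, 35.3 and 22.9 CPM, then 6.27, 3.08 and 4.04, then 0.273, 0.523 and 0.517. Samd10, the repressor gene Bhlhe40 and the phosphatase inhibitor gene Ppp1r1a were likewise ordered TSA below Vehicle below A485. Ppp1r1a, for one, stood at 43.0, 48.1 and 34.7 CPM with A485, 9.96, 7.42 and 6.93 with Vehicle and 1.64, 1.05 and 1.42 with TSA. All 6 kept both calls in every setting. The lipid droplet gene Cidec and the kinase gene Pnck were named too, but their falls with TSA, from Vehicle levels of at most 1.99 CPM, were lost in at least 1 other setting (adjusted p up to 0.0535 and 0.0777).

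Nuclear genes of the respiratory chain were mostly higher with A485. Of 68 tested, 45 were higher with A485 and 7 with TSA (median -0.66), and 11 fell with TSA and rose with A485. Of these 11, 7 kept both calls at an adjusted p under 0.05 in every setting. Ndufb11, of complex I, stood at 716, 705 and 714 CPM with A485, 247, 240 and 225 with Vehicle and 149, 176 and 136 with TSA (-2.21 ± 0.15, adjusted p = 4.6e-08). Uqcrb, of complex III, stood at 1169, 1117 and 1198 CPM, then 650, 674 and 637, then 289, 383 and 290. For both genes all libraries of the 3 groups were apart. Sdhd of complex II, Cox7c of complex IV and Atp5e of the ATP synthase were in the same class. Against Vehicle, 38 of the 68 rose with A485 and 28 fell with TSA. The mitochondrially encoded genes went elsewhere, with 6 of 11 higher with TSA, 1 higher with A485 and 6 raised by both drugs. The cytochrome b gene mt-Cytb stood at 2892, 3478 and 4057 CPM with A485, 1757, 1597 and 1473 with Vehicle and 8530, 5842 and 10228 with TSA, while mt-Co1 was higher with A485 (-0.84 ± 0.20, adjusted p = 0.0024). Of the genes called in the direct test, the nuclear ones were thus mostly higher with A485 and the mitochondrial ones mostly with TSA. The other 4 of the 11 mitochondrial genes were not past the threshold, and the summed mitochondrial share overlapped between the drugs. Among ribosomal protein genes, which have many near-identical pseudogenes, 36 of 77 were higher with A485 and 8 with TSA (median -0.31), and 2 were opposite, neither of them in every setting.

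Imprinted and chromatin genes gave further members of this class. Sfmbt2 (chromosome 2, 10370510 to 10595253), a Polycomb-related gene imprinted in mouse extraembryonic tissue, stood at 118, 125 and 106 CPM with A485, 72.8, 59.0 and 57.2 with Vehicle and 2.73, 3.14 and 5.68 with TSA (-4.91 ± 0.32, adjusted p = 2.7e-08). Impact stood at 251, 348 and 360 CPM, then 34.5, 30.8 and 53.5, then 10.4, 6.80 and 19.6. The ubiquitin ligase gene Ube3a stood at 201, 176 and 167, then 91.7, 77.9 and 88.3, then 15.6, 17.3 and 18.9. These 3 and Jade1 were the 4 of 25 imprinted genes with opposite changes, and the libraries of the 3 groups did not overlap for any of the 4. The list as a whole was mixed, with 6 higher with TSA, 8 with A485 and a median of 0.20. Meg3, Rian and Rtl1, which share 1 imprinted cluster, were among the 6 higher with TSA, and Rian and Rtl1 had no count in any A485 library.

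Of 37 genes of DNA methylation and Polycomb, 14 were higher with A485 and 7 with TSA (median -0.37). The Polycomb gene Bmi1 stood at 57.9, 40.7 and 46.4 CPM with A485, 9.23, 15.0 and 11.9 with Vehicle and 6.83, 4.71 and 6.46 with TSA (-3.01 ± 0.28, adjusted p = 7.2e-07). Of 25 SWI/SNF remodeller genes, 10 were higher with A485 and 6 with TSA (median -0.45). Pbrm1, the polybromo subunit with its acetyl-lysine-binding bromodomains, stood at 106, 85.1 and 77.5 CPM, then 51.0, 41.1 and 40.6, then 26.2, 20.7 and 18.3. Dpf3 of the same complexes went the other way, at 1.57 ± 1.04 CPM (SD, n = 3) with A485, 13.2 ± 2.86 with Vehicle and 29.5 ± 10.8 with TSA, and its rise with TSA was lost in at least 1 other setting (adjusted p up to 0.0933).

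Cell cycle and cell death genes were split. Of 40 cell cycle genes, 16 were higher with A485 and 9 with TSA (median -0.21). Ccnb2, a mitotic cyclin, stood at 419, 777 and 543 CPM with A485, 298, 250 and 319 with Vehicle and 148, 122 and 168 with TSA. Ccna2, the cyclin of DNA synthesis, was higher with TSA, at 926, 804 and 799 CPM against 169, 219 and 248 with A485 and 211, 248 and 268 with Vehicle. Of 25 apoptosis genes, 13 were higher with A485 and 4 with TSA (median -0.57). The caspase inhibitor Xiap fell with TSA and rose with A485 (-2.49 ± 0.22, adjusted p = 3.9e-07), while the death-promoting genes Bcl2l11 and Pmaip1 were higher with TSA by 2.85 ± 0.25 (adjusted p = 3.4e-07) and 2.08 ± 0.19 (adjusted p = 6.3e-07). Gapdh of glycolysis also fell with TSA and rose with A485, at 1486, 1568 and 2130 CPM with A485, 969, 847 and 861 with Vehicle and 475, 366 and 389 with TSA.

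**Figure D3:**
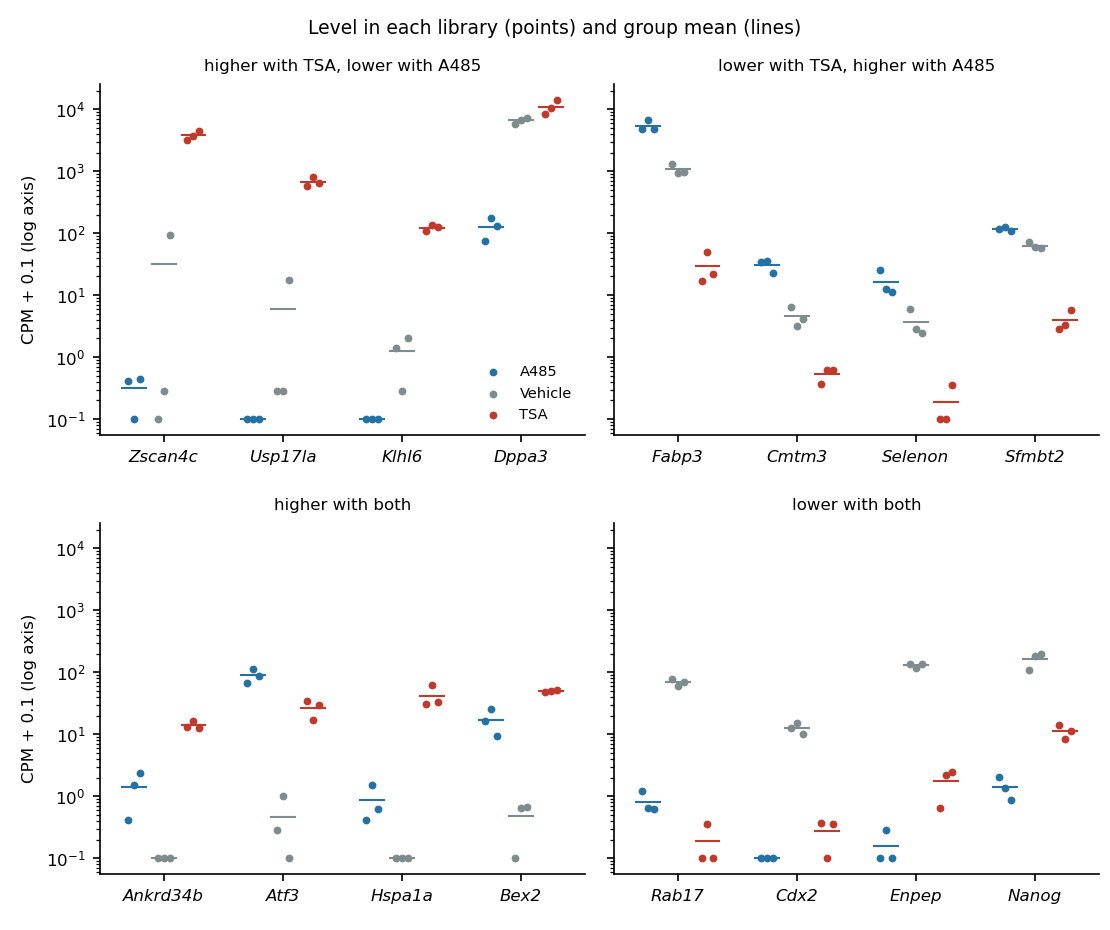
CPM plus 0.1 (log axis) of 16 genes, 4 for each class, with 1 point per library and a line at the group mean. The 4 shown as higher with TSA and lower with A485 (Zscan4c, Usp17la, Klhl6 and Dppa3) each lost the opposite call in at least 1 other setting. Fabp3 falls from 4762 to 6826 CPM with A485 to 16.9 to 50.2 with TSA, while Cdx2, Rab17 and Enpep are high only in the Vehicle libraries among the 3 groups.

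Of 30 pluripotency genes, 19 fell with both drugs. Nanog stood at 1.97, 1.27 and 0.774 CPM with A485, 111, 186 and 197 with Vehicle and 13.8, 8.37 and 11.1 with TSA. Both drugs left Nanog below every Vehicle library, and TSA left it higher than A485 did (3.03 ± 0.41, adjusted p = 1.9e-05). Pou5f1 (1.19 ± 0.31, adjusted p = 0.0044) and Klf5 (1.42 ± 0.20, adjusted p = 2.8e-05) showed the same order. In the direct test 26 of the 30 were higher with TSA and 2 with A485 (median 2.52), so a fall with both and a difference between the drugs stood side by side. Tdgf1, a Nodal co-receptor, had no count in any A485 library and stood at 2.73, 1.83 and 4.65 CPM with TSA and 109, 53.8 and 61.8 with Vehicle. Gata6, the primitive endoderm factor, stood at 0.315, 2.17 and 1.03 CPM with A485, 114, 138 and 104 with Vehicle and 5.47, 3.14 and 6.98 with TSA.

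Of 49 trophectoderm genes, 20 fell with both drugs, while 22 were higher with TSA and 14 with A485 in the direct test (median 0.60). Cdx2, the lineage's defining factor, stood at 12.6, 14.8 and 10 CPM with Vehicle, had no count in any A485 library and stood at 0.273, 0 and 0.258 with TSA. TSA and A485 overlapped for Cdx2, and the direct call (adjusted p = 0.021) was lost in at least 1 other setting (up to 0.158). Gata3 fell farther with TSA, at 4.65, 6.54 and 5.43 CPM against 29.0, 44.3 and 21.1 with A485 and 335, 297 and 304 with Vehicle (-2.5 ± 0.25, adjusted p = 1.2e-06). Id2, a target of BMP signals, fell farther with A485, at 7.88, 14.5 and 11.5 CPM against 150, 149 and 175 with TSA and 585, 472 and 498 with Vehicle. The epithelial keratin gene Krt8 fell with TSA alone, at 91.6, 66.7 and 97.4 CPM, with 649, 825 and 869 with A485 and 946, 943 and 903 with Vehicle (TSA against A485 -3.20 ± 0.22, adjusted p = 3.5e-08).

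The 6 genes that fell most with both drugs by the naming rule were Rab17, Enpep, Cdx2, Lgals4, Tmprss2 and Csf3r, most of them genes of epithelial cells. Enpep, a membrane aminopeptidase, stood at 136, 117 and 136 CPM with Vehicle, 0, 0.181 and 0 with A485 and 0.547, 2.09 and 2.33 with TSA. Rab17 stood at 79.3, 60.1 and 69.5 CPM with Vehicle, 1.10, 0.543 and 0.516 with A485 and 0, 0.262 and 0 with TSA. Enpep was higher with TSA and Rab17 with A485, each at a level of a few counts. The direct call was lost in at least 1 other setting for Rab17 (adjusted p up to 0.0721) and Tmprss2 (up to 0.178), and Lgals4 (adjusted p = 0.63) and Csf3r (0.075) were not past the threshold.

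Ribosome biogenesis genes fell more with A485. Of 41 tested, 17 fell with both drugs, and in the direct test 24 were higher with TSA and 6 with A485 (median 0.85). Against Vehicle, 32 of the 41 fell with A485 and 21 with TSA. Nolc1, a nucleolar scaffold, stood at 37.4, 40.4 and 45.6 CPM with A485, 190, 241 and 244 with Vehicle and 146, 228 and 203 with TSA. TSA and Vehicle overlapped for Nolc1 while A485 was low (2.22 ± 0.19, adjusted p = 3.2e-07). Tigar, a p53 target that restrains glycolysis, fell to 16.1, 16.1 and 20.3 CPM with A485 and to 223, 200 and 201 with TSA from 284, 325 and 337 with Vehicle (3.57 ± 0.17, adjusted p = 1.9e-09). The chaperone gene Hspd1 of mitochondria fell farther with TSA, to 104, 140 and 146 CPM against 354, 429 and 471 with A485 and 794, 705 and 771 with Vehicle.

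Of the 6 named genes that rose with both drugs, Atf3 and Hspa1a are stress genes, while of the 26 heat shock genes tested 3 rose and 11 fell with both. Atf3, a stress-induced transcription factor, stood at 0.185, 0.905 and 0 CPM with Vehicle, 67.9, 115 and 86.8 with A485 and 34.4, 17.0 and 29.2 with TSA. Both drugs raised Atf3 above every Vehicle library, A485 by more (TSA against A485 -1.74 ± 0.37, adjusted p = 0.001). Hspa1a, an inducible heat shock gene with a near-identical neighbour, had no count with Vehicle and stood at 0.315, 1.45 and 0.516 CPM with A485 and 30.6, 62.3 and 33.1 with TSA. Hspa1a was at least 452-fold above the Vehicle floor with TSA and at least 8.17-fold with A485. Ankrd34b, also at 0 with Vehicle, stood at 0.315, 1.45 and 2.23 CPM with A485 and 12.8, 16.2 and 12.4 with TSA. The long noncoding RNA Cerox1 was at 0 with Vehicle, at 15.5, 14.1 and 22.3 CPM with A485 and at 7.65, 4.71 and 9.30 with TSA, and its direct call (adjusted p = 0.014) was lost in at least 1 other setting (up to 0.120).

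Bex2, a gene of neurons, stood at 0, 0.543 and 0.577 CPM with Vehicle, 16.0, 25.2 and 9.28 with A485 and 47.3, 50.0 and 52.2 with TSA. Of 28 neuronal genes tested, 9 rose with both drugs, 15 were higher with TSA and 2 with A485 (median 1.71). Btg2, an antiproliferative early gene, rose from 31.9, 39.7 and 29.8 CPM to 68.9, 70.0 and 84.1 with A485 and 245, 245 and 250 with TSA. Sirt2, a tubulin deacetylase that TSA does not inhibit, rose more with A485, to 86.3, 123 and 124 CPM against 29.0, 34.3 and 24.3 with TSA, from 13.8, 17.3 and 14.1 (-1.93 ± 0.21, adjusted p = 2.2e-06). The death gene Bik rose from at most 0.543 CPM to 37.2, 28.8 and 42.6 with A485 and 6.01, 3.66 and 2.84 with TSA. The alpha-globin gene Hba-a1 was 17.1 to 39.5 CPM with TSA and 0.688 to 2.21 with A485, while the beta-globins were at 0.

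Of 13 genes listed as responsive to deacetylase inhibitors in other cells, 9 were higher with TSA and 4 with A485 (median 1.06), and 0 were opposite. Cdkn1c, a cell cycle inhibitor, stood at 74.9, 35.3 and 41.9 CPM with TSA, 0.158, 1.45 and 0 with A485 and 1.48, 0.362 and 0.577 with Vehicle, so TSA alone moved it. Gsn, which severs actin filaments, was higher with A485, at 89.6, 81.2 and 88.5 CPM against 32.5, 14.9 and 22.2 with TSA. Of the lists on signalling, Fgf, Nodal and BMP genes were higher with TSA at 16 and with A485 at 5 of 32 (median 1.46), and Hippo and Tead genes at 7 and 9 of 26 (median -0.19). The 25 immediate early genes had 11 higher with TSA and 4 with A485 (median 0.64). Fos stood at 58.5, 42.9 and 50.6 CPM with TSA and at most 0.946 with A485, and its fall with A485 from 0.738, 2.53 and 1.15 with Vehicle was lost in at least 1 other setting (adjusted p up to 0.189).

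**Figure D4:**
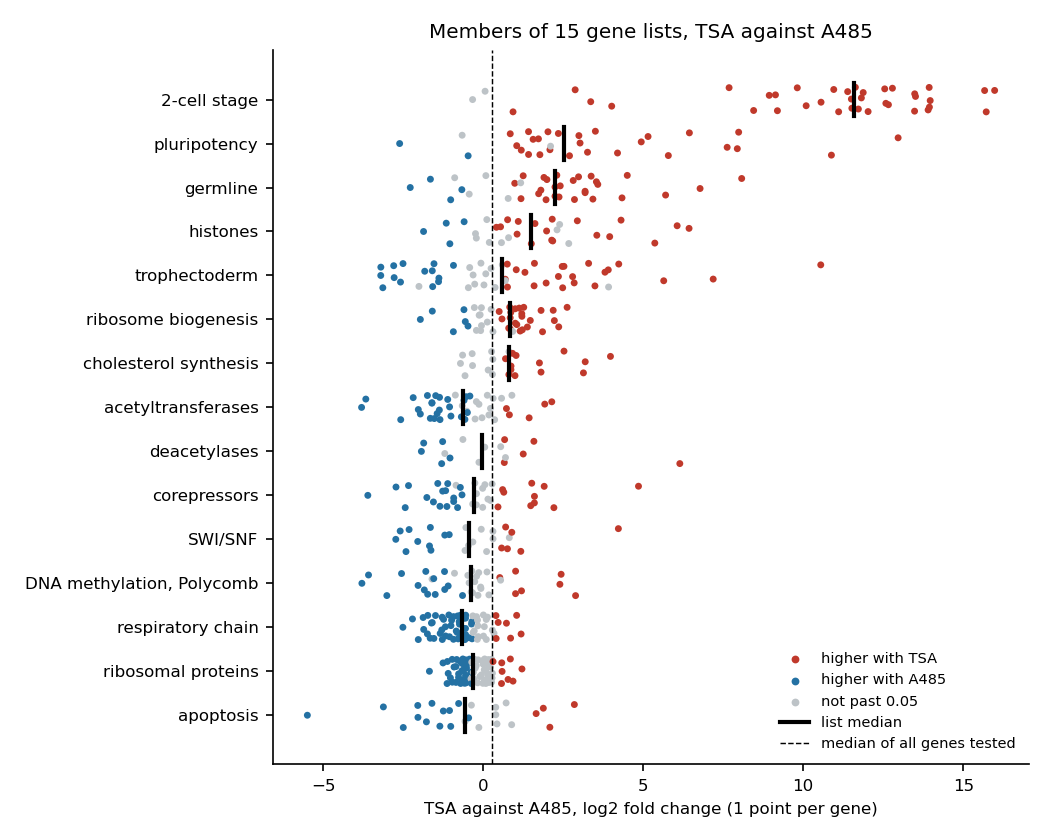
Log2 fold change of TSA against A485 for the members of 15 gene lists, 1 point per gene tested, with positive values higher with TSA. The 2-cell list lies farthest to the right (median 11.57), pluripotency (2.52) and germline (2.25) follow, and respiratory chain (-0.66) and acetyltransferase genes (-0.62) lie to the left of 0.

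Genes called in 1 contrast only make up much of the direct difference. TSA alone was called at 5453 genes, of which 4620 also differed directly, and A485 alone at 3140, of which 2601 did. S100a1, a calcium-binding protein gene, rose with A485 to 48.1, 98.5 and 44.1 CPM and stood at 0.547, 0 and 0.388 with TSA and 1.29, 0.181 and 0 with Vehicle. Slc7a3, an amino acid transporter gene, stood at 14.3, 116 and 21.7 CPM with A485 and at most 1.85 elsewhere among the 3 groups. Zfp809, which silences retroviruses, rose with TSA to 426, 557 and 452 CPM from 39.9, 47.9 and 40.6, with 45.4, 48.5 and 45.7 with A485. Serpinb9b, a protease inhibitor gene, fell with both drugs but far more with TSA, to 0.547, 0.262 and 0 CPM against 10.4, 45.6 and 29.7 with A485 and 127, 79.3 and 102 with Vehicle.

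Libraries labelled siP300, from embryos injected with siRNA against p300, share no library with the 2 drugs. They were set beside the siControl group, also injected at an earlier stage, for the 17194 genes tested in both fits. Treatment of both siRNA groups started at E0.5, with harvest at E2.75, against a start at E2.5 for the drugs. The targeted gene Ep300 had a mean of 19.6 CPM with siP300 and 26.5 with siControl, a log2 difference of -0.43 (adjusted p = 0.26), which was not past the threshold. A knockdown was thus not shown at the RNA level, and siP300 below means the libraries so labelled. Over the 17194 genes, 19.2% were higher and 17.1% were lower with siP300. Of the genes that rose with both drugs, 853 of 1498 (56.9%) were higher with siP300 and 36 (2.4%) were lower. Of those that fell with both drugs, 21 of 1956 (1.07%) were higher and 1019 (52.1%) were lower. Of the genes that rose with TSA and fell with A485, 222 of 802 (27.7%) were higher and 76 (9.48%) were lower. Of those that fell with TSA and rose with A485, 118 of 819 (14.4%) were higher and 128 (15.6%) were lower. The opposite classes thus lay nearer the background than the shared ones, and in the first of them more genes were higher than lower with siP300. The share of 27.7% depended on single libraries. It was 17.6% without siP300 2, which held 915 CPM of MERVL-int against 151 and 158 in siP300 1 and 3, and 15%, 18.8% and 14.7% without siControl 1, 2 and 3. The shares of all genes that were higher in these 4 settings were 17.7%, 13.2%, 14.4% and 14.2%. With the class formed without Vehicle 3, 99 of 496 (20%) were higher and 59 (11.9%) were lower.

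The siP300 libraries also held more mitochondrial RNA (4.94 to 6.99% against 1.94 to 2.45% in siControl) and a higher sum of blood and immune markers (167 to 329 CPM against 17.8 to 28.1), and the part of these in the result was not tested.

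**Figure D5:**
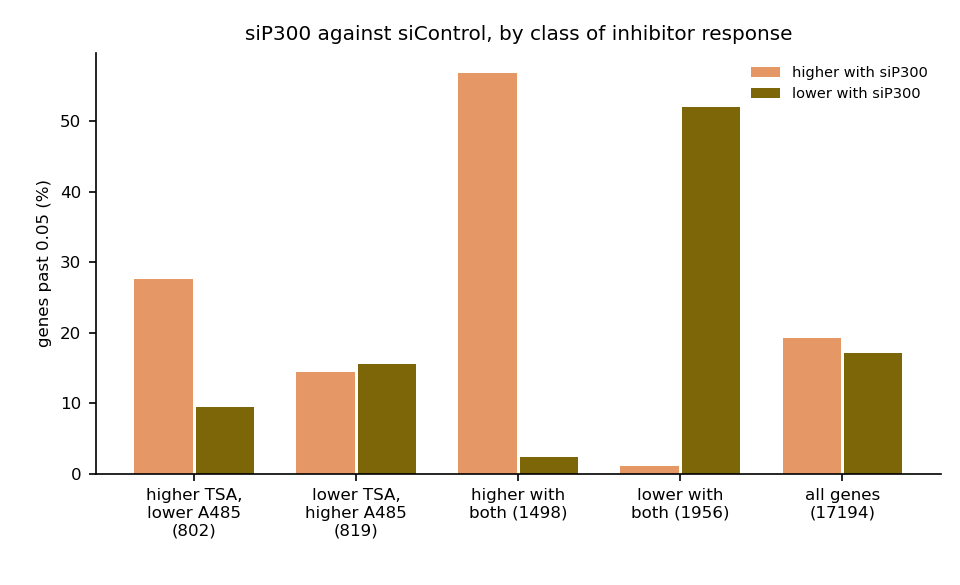
Percent of genes higher and lower in siP300 than in siControl (adjusted p under 0.05) within each class of response to TSA and A485, and over all 17194 genes tested in both fits. The shared classes reach 56.9% higher and 52.1% lower, while the opposite classes lie between 9.48% and 27.7%.

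The classes also differed in the make-up of their genes. Gene models of GENCODE vM21 on GRCm38 were found for 97.4% of the genes tested. Genes that rose with TSA and fell with A485 had a median of 2398 exonic bases and 8 annotated exons over all transcripts, 67.1% were protein coding, and 375 of 883 were unnamed models. Genes that fell with TSA and rose with A485 had a median of 4320 exonic bases and 19 exons, 91.8% were protein coding, and 88 of 821 were unnamed. Genes that rose with both had 4019.5 exonic bases and 16 exons, and genes that fell with both had 3596.5 and 16, beside 3512 and 14 for all genes tested. Over all genes tested, 78.4% of those with a model were protein coding, and 4551 of 18299 were unnamed. The median level was 24.2 CPM and 41.0 CPM in the opposite classes, 12.3 and 27.7 in the shared ones and 9.70 over all genes tested. A gene is called in both contrasts more readily when its counts are high, and the part of level in class membership was not tested.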

How the data were processed

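The authors deposited raw counts per gene for each library, in single files and in 1 table for the whole series, and 27 of 27 libraries held the same counts in both. The submitters' processing notes name STAR 2.7.11a, featureCounts, Subread 2.0.6, MultiQC and Scanpy 1.8.2, and the builds mm10 and GRCh38 with no role for each. Per the labels' protocols, libraries came from amplified low-input RNA. Annotation release, strand setting, read-pair handling and the counting of the 2 MERVL rows were not found in the labels or notes, so overlapping and antisense genes cannot be told apart. Of nonzero counts, 83.9 to 85.9% were even in the TSA and A485 libraries, so a count may be 1 read of a pair, and floors, which cover counting error only, may be too low.

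Genes were tested on the deposited counts with edgeR 4.0.16 (R 4.3.3; quasi-likelihood test, TMM scaling, filterByExpr with a minimum count of 10) in 1 fit of the 12 uninjected libraries, which also include the SAHA group. This kept 18299 of 55369 rows. P-values were adjusted by Benjamini-Hochberg per contrast, with a threshold of 0.05. The siRNA family was fitted separately (19182 genes). A class is the pair of signs of a gene called in both contrasts with Vehicle. Replicate pairs of these 3 groups differed by 13.4 to 44.4 chi-square per degree of freedom over 9 pairs, so none was a duplicate.

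Members, classes and 34 gene lists were chosen with earlier results of these data known. Named genes were 8 fixed ones, the 8 extreme genes per direction, 6 per class (mean of at least 10 CPM, groups that do not overlap) and up to 3 per list. Other genes were named after their values were seen, and not all genes the rule allows are written out. A gene at 0 in a group was bounded by 3 counts over the group. The test was run on simulated counts for the TSA and A485 libraries alone, with few genes changed and random signs. A difference as wide and uneven as in these data was not simulated, so that run does not check this case. Promoters are from RefSeq. Alternatives were DESeq2 1.42.0 size factors or test, library size alone, limma-voom (limma 3.58.1), other filters, thresholds and sample sets, a replicate block and leaving out each library. The siP300 counts by class without single siRNA or Vehicle libraries were added after seeing the data.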

Additional observations from a re-analysis of the deposited data

How the results depend on the processing

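The direct difference was stable in number, while the classes moved with single libraries, the threshold, the test and the scaling. Leaving out 1 library at a time gave 10701 to 11571 genes for TSA against A485, 9437 to 11128 for TSA against Vehicle and 7227 to 8243 for A485 against Vehicle. The same gave 514 to 855 genes that rose with TSA and fell with A485, 570 to 1032 that fell with TSA and rose with A485, 1213 to 1543 that rose with both, 1567 to 1910 that fell with both and 1316 to 1606 shared genes that differed directly. The bare order of libraries gave 962 to 1204 and 1598 to 1734 genes, and siP300 against siControl 4795 to 6535 of 6788. The lowest value of the first opposite class, 514, was without Vehicle 3.

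The 2 opposite classes held 611 and 1001 genes by limma-voom, 1124 and 798 by DESeq2's test, 819 and 981 with library size alone and 939 and 710 with DESeq2 size factors. With fits of just the groups compared, without SAHA, they held 777 and 714, and 10679 genes differed directly. In a fit of all 27 libraries the 2 opposite classes held 745 and 920.

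At an adjusted p under 0.01 the classes held 409 and 391 opposite genes and 882 and 1302 shared genes, of which 785 differed directly. With at least 2-fold changes, 706 genes rose with TSA and fell with A485 and 275 did the reverse, so the opposite classes were less even. At that threshold 1103 genes rose with both, 1254 fell with both and 851 shared genes differed directly. Detected genes were 2206.3 more with TSA than with A485 on counts as deposited, beside 3046 after thinning. The cause of these moves was not tested, save that stricter thresholds call fewer genes. Of the direct calls, 56.9% were higher with TSA, against 60.6% with DESeq2 size factors and 52.8% with library size alone. Of 130 named genes, 121 kept their side of the threshold in the direct test in every setting in which they were tested.

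With the replicate number as a block, 11502 genes differed directly (6519 and 4983), with 856 and 819 opposite genes, 1464 and 1980 shared ones and 1693 that differed in size. Against Vehicle the block gave 10527 genes for TSA and 8191 for A485. Same-numbered TSA and A485 libraries deviated together with r = 0.145, -0.00226 and 0.0857 across genes, so the numbers were not taken as pairs. Pools of 3 per group, shallower TSA libraries and many A485 values at 0 limit what small differences at low levels can show.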

Other observations

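Other lists of genes are set beside all genes tested, of which 36.1% were higher with TSA and 27.4% with A485. Of 21 maternal genes, 10 were higher with TSA and 2 with A485 (median 2.31), and the tissue protease gene Plat and the receptor gene Kit rose with TSA and fell with A485, though the A485 call of Kit was lost in at least 1 other setting (adjusted p up to 0.0849). Of 21 primitive endoderm genes, 10 were higher with TSA and 3 with A485 (median 1.34), and Sox17 was opposite along with P4ha2 and Hnf4a, though its TSA call was lost in at least 1 other setting (adjusted p up to 0.161). Of 28 glycolysis genes, 9 were higher with TSA and 10 with A485 (median 0.29). The lactate carrier gene Slc16a1 and the pyruvate carrier gene Mpc1 rose with TSA and fell with A485, while Gapdh did the reverse. Both calls of Mpc1 were lost in at least 1 other setting (adjusted p up to 0.0826 with TSA and 0.138 with A485).

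Of 25 p53 target genes, 9 were higher with TSA and 6 with A485 (median 0.08, turning to -0.08 with library size alone). These shares, 36% and 24%, were near those over all genes tested. Of 30 genes of the integrated stress response, 10 (33.3%) were higher with TSA and 8 (26.7%) with A485 (median 0.14), also near those shares. Sesn2 and Ppp1r15a rose with TSA and fell with A485, though the A485 call of Sesn2 was lost in at least 1 other setting (adjusted p up to 0.120). Of 26 heat shock genes, 12 were higher with TSA and 6 with A485 (median 0.24), and 11 fell with both drugs. Of 5 blood and immune markers that passed the filter on low counts, 3 were higher with TSA and 2 with A485, and the 3 other marker lists had 2 or 3 members past the filter.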
